A study of Arabidopsis thaliana with 24 samples.

Results

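The genes described here are 10 Arabidopsis thaliana genes for inhibitors of cyclin-dependent kinases (CDKs) and for an activator of the endocycle, chosen by locus from the 40246 features of the deposited table. They are the 7 KIP-RELATED PROTEIN genes KRP1 (AT2G23430, also ICK1), KRP2 (AT3G50630), KRP3 (AT5G48820), KRP4 (AT2G32710), KRP5 (AT3G24810), KRP6 (AT3G19150) and KRP7 (AT1G49620), the SIAMESE-family genes SIM (AT5G04470) and LGO (AT3G10525, also SMR1), and CCS52A1 (AT4G22910, also FZR2). Each locus matched 1 row, and all 10 had reads in every library and passed the filter on low values. BL+Kyn, a brassinosteroid given with an inhibitor of auxin synthesis, raised KRP1, KRP5 and KRP6 and lowered LGO, KRP3 and CCS52A1, while SIM, KRP2, KRP4 and KRP7 were not called against mock.

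In the endocycle a cell copies its DNA without dividing, and its nuclear DNA content grows. Entry requires that the activity of mitotic CDK complexes drops. KRP proteins and the plant-specific SIAMESE-RELATED (SMR) proteins bind CDK-cyclin complexes and restrain them, and CCS52A1 activates the anaphase-promoting complex (APC/C), the ubiquitin ligase that sends mitotic cyclins to destruction. SIM is known for keeping leaf trichomes from dividing, LGO for the giant cells of the sepal, and CCS52A1 for the passage of root cells from the meristem to elongation. In the root, cells that leave the meristem enter the endocycle as they elongate and, in hair files, as they form hairs.

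Roots came from seedlings of the Col-0 accession, 3 days old when moved from half-strength Murashige and Skoog medium with sucrose to the treatments. These were 0.8 nM brassinolide (BL, the brassinosteroid), 4 µM L-kynurenine (Kyn, which blocks the aminotransferase step of auxin synthesis), both together (BL+Kyn), or mock, each for 12, 24 or 48 h. Each of the 12 groups had 2 libraries, which the series calls biological replicates, so 24 libraries were made, from whole pieces of root cut near the tip. Transcripts were counted from their 3' ends by CEL-Seq2, with 8.57 to 21.06 M (mega-reads) a library in BL+Kyn, 7.37 to 24.53 M in Kyn, 6.32 to 22.34 M in BL and 9.30 to 31.37 M in mock. In 2 libraries, BL 12 h replicate 2 and Kyn 12 h replicate 2, 10 transcripts of green tissue summed to 88407 and 97518 normalized counts, against 1986 to 4700 in mock. Averaged calls of the 10 genes that use them are given also without both. In such bulk tissue, fewer cells of a type and less RNA per cell cannot be told apart.

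The DNA just before 3 genes is shown because they include the largest rise and the largest fall among the 10, and hormone-dependent factors act on such stretches. Given are the 250 bases before the RefSeq gene start in TAIR10.1, written 5′ to 3′ on the strand of the gene, for KRP1 (chr2:9978091-9978340, minus strand), which had the largest rise, LGO (chr3:3282132-3282381, minus strand), which had the largest fall, and CCS52A1 (chr4:12012158-12012407, plus strand), which encodes the APC/C activator and also fell. Capitals mark matches on either strand to the auxin response elements TGTCTC or TGTCGG, the brassinosteroid elements CGTGTG or CGTGCG, the G-box CACGTG or the E2F-type site TTTNNCGC.
KRP1: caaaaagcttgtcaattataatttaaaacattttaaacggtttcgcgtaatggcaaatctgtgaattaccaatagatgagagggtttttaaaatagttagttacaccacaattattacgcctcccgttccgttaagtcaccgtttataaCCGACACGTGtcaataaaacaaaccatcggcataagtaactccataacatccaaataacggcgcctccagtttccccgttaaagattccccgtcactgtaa
LGO: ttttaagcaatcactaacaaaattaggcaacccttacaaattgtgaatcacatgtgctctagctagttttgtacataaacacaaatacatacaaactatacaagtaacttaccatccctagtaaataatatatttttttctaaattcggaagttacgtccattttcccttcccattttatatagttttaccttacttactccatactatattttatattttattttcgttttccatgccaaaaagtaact
CCS52A1: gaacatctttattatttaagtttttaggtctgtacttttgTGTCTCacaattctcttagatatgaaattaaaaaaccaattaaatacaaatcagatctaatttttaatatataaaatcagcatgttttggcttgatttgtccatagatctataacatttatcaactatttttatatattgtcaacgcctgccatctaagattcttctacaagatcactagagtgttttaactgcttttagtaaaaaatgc
In KRP1 a TGTCGG read on the other strand, 101 to 96 bases before the start, overlaps a G-box 97 to 92 bases before it. Of 27443 promoters of this length, 4.16% hold TGTCGG and 6.49% hold CACGTG. CCS52A1 holds a TGTCTC 210 to 205 bases before its start, as do 10.9% of these promoters. LGO holds none of the 6 motifs in this window. Among the other 7 genes the single match was a CGTGTG before KRP2 (5.37% of promoters). CGTGCG (1.57%) and TTTNNCGC (5.86%) matched none of the 10. A match is a description of letters, not evidence of binding.

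Averaged over the 3 times, 6 of the 10 genes were called in BL+Kyn against mock. A gene is called, and is said to rise or fall, where limma gave an adjusted p under 0.05 after Benjamini-Hochberg adjustment over all 18948 genes tested. The background was high, since 36.3% of all tested genes were called in this comparison, 18.7% higher and 17.6% lower. In Kyn against mock 2 of the 10 were called (4.9% of all genes), and in BL against mock 0 of the 10 (1.88% of all genes). In BL the limma test gave an unadjusted p under 0.05 for KRP1 (0.0108, higher) and LGO (0.0429, lower), and neither edgeR nor DESeq2 called any of the 10. The median log2 change of the 10 was -0.05 in BL+Kyn, -0.07 in Kyn and -0.04 in BL, against medians over all genes within 0.02 of 0. The called genes went both ways, 3 higher and 3 lower in BL+Kyn and 1 higher and 1 lower in Kyn.

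**Figure D1:**
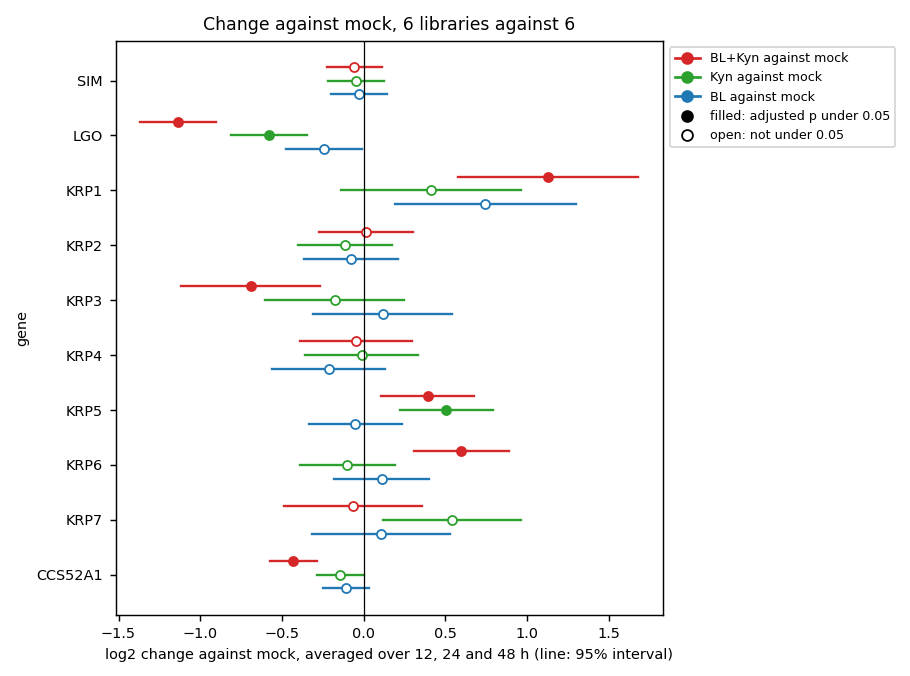
Log2 change against mock averaged over 12, 24 and 48 h for each of the 10 genes (rows), as fitted by limma on log2 of the normalized count plus 1, in BL+Kyn, Kyn and BL, 6 libraries against 6. Lines are 95% intervals and filled points have an adjusted p under 0.05. LGO lies at -1.13 and KRP1 at 1.13 in BL+Kyn, while every interval of SIM includes 0.

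SIM, the founding member of its family, had the steadiest level of the 10 genes by coefficient of variation, which counting raises in genes with few reads. Its normalized count averaged 1542 ± 180 in BL+Kyn, 1548 ± 102 in Kyn, 1572 ± 156 in BL and 1603 ± 187 in mock (SD, n = 6 each). The coefficient of variation over all 24 libraries was 9.64%, the lowest of the 10, and the highest of the 12 group means was 1.24 times the lowest. The change in BL+Kyn against mock was -0.06 on the log2 scale (SE 0.08, 95% interval -0.23 to 0.11), with an adjusted p of 0.627 by limma. Kyn gave -0.04 (interval -0.22 to 0.13) and BL -0.03 (interval -0.20 to 0.14). The SIM gene lies on chromosome 5 at 1266625 to 1267416 (TAIR10).

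LGO, the inhibitor that sets how many sepal cells become giant cells, fell in both treatments with Kyn. The gene lies on chromosome 3 at 3281362 to 3282032. In BL+Kyn its normalized counts were 405 and 441 at 12 h, 342 and 397 at 24 h and 220.3 and 354 at 48 h. In Kyn they were 459 and 545, 488 and 615, and 498 and 513 at these times. All 12 of these libraries lay below every mock library. In BL they were 739 and 732, 657 and 675, and 684 and 477, and in mock 801 and 920.0, 744 and 758, and 769.8 and 665. The libraries of BL overlapped with those of mock, with 48 h replicate 2 the lowest of BL. The treatment means ran in the order 359.8 ± 77.2 in BL+Kyn, 519.7 ± 54.6 in Kyn, 660.5 ± 95.6 in BL and 776 ± 83.6 in mock (SD, n = 6 each).

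Against mock, LGO fell by 1.13 on the log2 scale in BL+Kyn (SE 0.11, limma adjusted p = 4.30e-07), to 0.456 of mock, and it was lower in 6 of 6 libraries. It fell by 0.58 in Kyn (SE 0.11, limma adjusted p = 0.00260, 6 of 6 libraries), and by 0.62 without both green-tissue libraries (adjusted p = 0.00488). Of all tested genes, 5.95% lay lower without overlap in BL+Kyn and 2.32% in Kyn. In BL the estimate was -0.24 (SE 0.11, adjusted p = 0.401 by limma), lower in 6 of 6 libraries but not called. Adding BL to Kyn lowered LGO further. BL+Kyn against Kyn gave -0.56 (SE 0.11, limma adjusted p = 0.00111) and BL+Kyn against BL gave -0.89 (SE 0.11, limma adjusted p = 1.16e-05). Neither pair of treatments overlapped; of all tested genes, 5.38% and 4.56% lay lower without overlap in these comparisons. Without both green-tissue libraries the changes were -0.51 (adjusted p = 0.00650) and -0.90 (adjusted p = 6.88e-05). In these 2 comparisons 30.3% and 27.7% of all genes were called, and 5 of the 10 genes in each. The neighbours BL and mock in the order of means had overlapping libraries, and their difference was not called after adjustment. Before adjustment BL was lower (unadjusted p = 0.0429 by limma, interval -0.473 to -0.008). Kyn against BL was not tested. At single times LGO was called in BL+Kyn at 12 h (-1.02, adjusted p = 0.00332 by limma), 24 h (-1.03, adjusted p = 0.00159) and 48 h (-1.36, adjusted p = 7.56e-05), where 5.02%, 18.2% and 23.4% of all genes were called. Without mock 12 h replicate 2 the 12 h call was lost (-0.92, adjusted p = 0.0627). In Kyn at 12 h the change was -0.78 (adjusted p = 0.0523 by limma). That value passed the threshold with edgeR on recovered reads (adjusted p = 0.0449) and with DESeq2 (adjusted p = 0.00484).

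**Figure D2:**
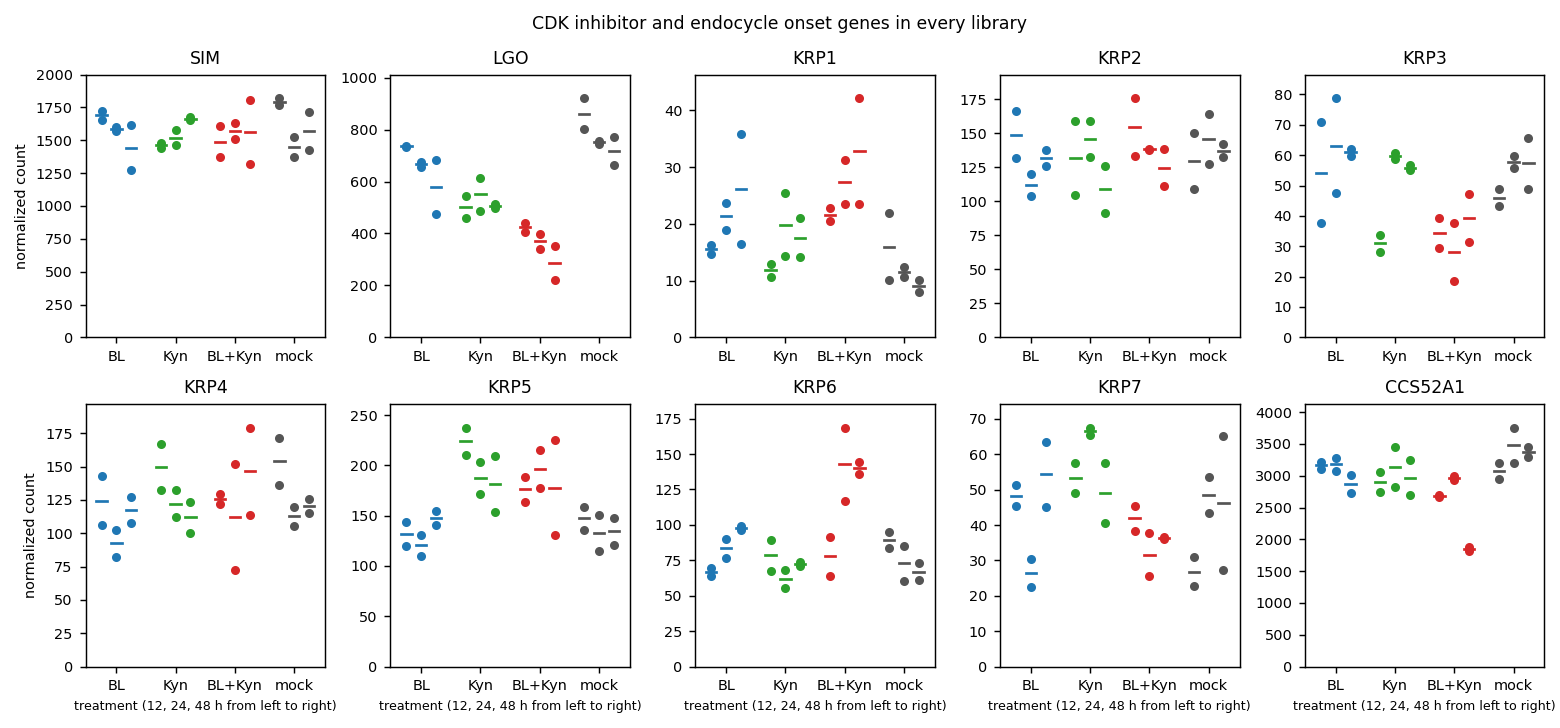
Normalized count of each of the 10 genes in every library (points, 2 a group), with the group mean as a bar, by treatment and, from left to right within a treatment, at 12, 24 and 48 h; each panel has its own axis from 0. LGO in BL+Kyn sits at 220.3 to 441, below the 665 to 920.0 of mock, and CCS52A1 is lowest in BL+Kyn at 48 h, at 1813 and 1875.

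Transcripts of root hair cells were low, as LGO was, in both treatments with Kyn. The summed normalized counts of 8 root hair markers (EXPA7, EXPA18, PRP1, PRP3, COBL9, RHD6, RSL4 and LRX1) were 3237 to 11140 in BL+Kyn, 8484 to 14446 in Kyn, 31153 to 61076 in BL and 31206 to 51008 in mock, with none of the 8 at 0 in any library. Over the 12 group means of log2 of the normalized count plus 1, LGO and the mean of these 8 markers had a Pearson r of 0.948. This is a description over groups that share treatments and normalization. In the same groups CCS52A1 had 0.717, SIM 0.252 and KRP5 -0.770. The r of LGO was 0.677 with the root meristem markers and -0.607 with the endodermis markers. In BL against mock, averaged over times, 0 of the 8 root hair markers were called (1.88% of all genes). Their median there was 0.22, with 5 estimates above 0, while that of LGO was -0.24. The 8 markers of dividing cells summed to 2455 and 2678 in BL+Kyn at 12 h, below every mock library, to 3047 and 3268 at 24 h and to 3567 and 4466 at 48 h, against 2955 to 3850 in mock. Averaged over times 4 of these 8 fell in BL+Kyn against mock and 0 rose, with a median of -0.33, where 17.6% of all genes fell. In that comparison 7 of the 8 root hair markers fell and 0 rose, with a median of -2.31. The 6 markers of the root meristem summed to 679 to 896 in BL+Kyn and 938 to 1139 in mock. Averaged over times 4 of the 6 fell against mock and 0 rose, with a median of -0.56. Endodermis markers summed to 16437 to 29054 in BL+Kyn and 12703 to 18887 in mock. Averaged over times 6 of these 7 rose against mock and 0 fell, with a median of 0.70, where 18.7% of all genes rose. Xylem markers summed to 1960.0 to 3546 in BL+Kyn and 1380 to 2609 in mock. Averaged over times, 2 of the 6 xylem markers rose against mock and 0 fell, where 18.7% of all genes rose and 17.6% fell. Their median was 0.01, and 3 of the 6 estimates were above 0. The part of these cell types in the changes of the 10 genes was not tested.

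**Figure D3:**
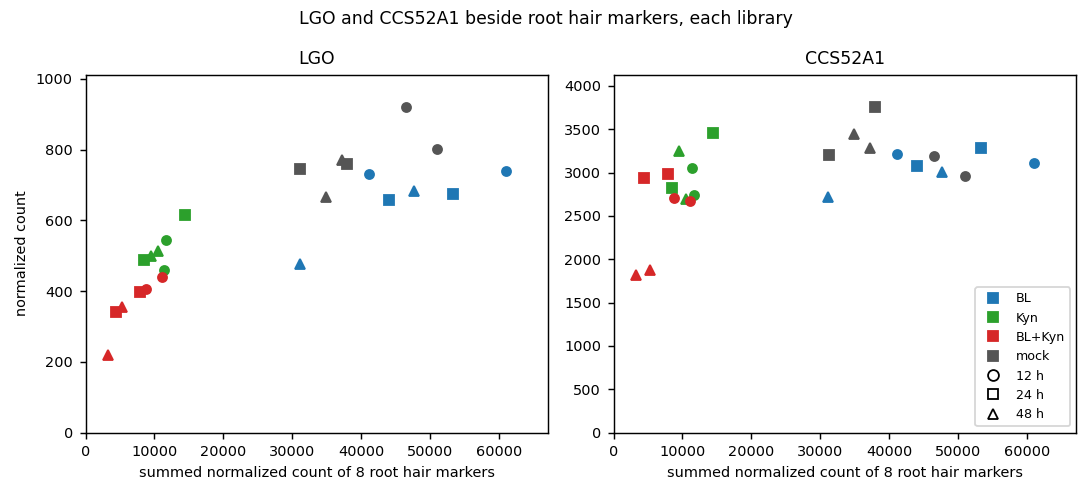
Normalized count of LGO (left) and CCS52A1 (right) against the summed normalized counts of 8 root hair markers in each of 24 libraries; colour gives the treatment and shape the time. The Kyn and BL+Kyn libraries lie at 3237 to 14446 counts of the markers and at 615 or less of LGO; of the other 12 libraries BL 48 h replicate 2, at 477, is the one within that range of LGO.

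CCS52A1, the APC/C activator of endocycle onset, was lower in BL+Kyn, and most of that difference lay at 48 h. The gene lies on chromosome 4 at 12012677 to 12016011. In BL+Kyn its normalized counts were 2703 and 2672 at 12 h, 2939 and 2989 at 24 h and 1813 and 1875 at 48 h. In mock they were 2956 and 3195, 3203 and 3756, and 3290 and 3446. The 48 h libraries of BL+Kyn were the lowest of all 24, and 1 library of BL+Kyn at 24 h lay above the lowest library of mock. Kyn averaged 3002 ± 305 and BL 3069 ± 196, against 3308 ± 271 in mock (SD, n = 6 each), with overlapping libraries.

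Averaged over times CCS52A1 fell by 0.43 in BL+Kyn against mock (SE 0.07, limma adjusted p = 7.99e-05, 6 of 6 libraries), to 0.742 of mock. It also fell against Kyn (-0.29, SE 0.07, limma adjusted p = 0.00370) and against BL (-0.32, SE 0.07, limma adjusted p = 0.00161). Without both green-tissue libraries these were -0.31 (adjusted p = 0.00709) and -0.32 (adjusted p = 0.00711). At 48 h alone the change against mock was -0.87 (SE 0.12, limma adjusted p = 4.64e-05). At 12 h and 24 h it was -0.19 and -0.23, with adjusted p of 0.421 and 0.194 by limma. With 12 and 24 h alone the averaged changes were -0.21 against mock (adjusted p = 0.0523), -0.09 against Kyn (adjusted p = 0.439) and -0.17 against BL (adjusted p = 0.147). Within BL+Kyn the level at 48 h was 0.54 below that at 12 h on the log2 scale (SE 0.12, limma adjusted p = 0.00622), a comparison in which 8.55% of all genes were called. In Kyn and BL the averaged changes of CCS52A1 against mock were -0.14 and -0.11 (adjusted p = 0.343 and 0.599 by limma).

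Among the KRP genes, KRP1, KRP5 and KRP6 rose in BL+Kyn, KRP3 fell, and KRP2, KRP4 and KRP7 were not called. KRP1, the inhibitor that was isolated by its binding to CDKs and whose overproduction gives small, serrated plants, had the largest rise and the fewest reads, 7 to 42 a library (chromosome 2, 9976746 to 9978021). In BL+Kyn its normalized counts were 22.7 and 20.5 at 12 h, 23.6 and 31.2 at 24 h and 42.1 and 23.6 at 48 h. In mock they were 21.9 and 10.2, 10.6 and 12.4, and 10.03 and 7.92. Only mock 12 h replicate 1 reached the range of BL+Kyn. In Kyn they lay between 10.7 and 25.4 with a median of 14.2, and in BL between 14.7 and 35.8 with a median of 17.7. KRP1 rose by 1.13 in BL+Kyn against mock (SE 0.26, limma adjusted p = 0.00246, 6 of 6 libraries), 2.19 times mock. BL gave 0.75 (SE 0.26, adjusted p = 0.212 by limma, 5 of 6 libraries) and Kyn 0.41 (SE 0.26, adjusted p = 0.546 by limma, 4 of 6 libraries). BL+Kyn against BL gave 0.38 (interval -0.17 to 0.94, adjusted p = 0.301 by limma). KRP1 in BL+Kyn was thus not told apart from BL alone. BL at 48 h was 1.36 above mock without overlap (unadjusted p = 0.00796, adjusted p = 0.327 by limma), but was not called. At 48 h the change in BL+Kyn was 1.71 (SE 0.46, limma adjusted p = 0.0107). That call was lost without BL+Kyn 48 h replicate 1 (1.31, adjusted p = 0.143) and without mock 48 h replicate 2 (1.56, adjusted p = 0.0769). With 12 and 24 h alone the averaged change was 0.84 (adjusted p = 0.0507). Against Kyn the averaged rise was 0.72 (adjusted p = 0.0464 by limma), and it missed the threshold in 22 of 33 alternatives, with adjusted p up to 0.144. These included leaving out any of 17 single libraries, such as BL+Kyn 48 h replicate 1 (0.58, adjusted p = 0.144) and Kyn 24 h replicate 1 (0.58, adjusted p = 0.135), and both green-tissue libraries (0.68, adjusted p = 0.1098).

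KRP6, an inhibitor that the F-box protein FBL17 removes in developing pollen, rose in BL+Kyn at 24 and 48 h (chromosome 3, 6616352 to 6617696). Its normalized counts in BL+Kyn were 91.6 and 64.1 at 12 h, 117 and 169 at 24 h and 145 and 136 at 48 h. In mock they were 83.6 and 95.3, 85.4 and 60.6, and 73.0 and 61.1. At 12 h the libraries of BL+Kyn and mock overlapped, and at 24 and 48 h all 4 of BL+Kyn lay above all mock libraries. In Kyn the counts lay between 55.2 and 89.7. In BL they were 63.8 and 69.7 at 12 h, 76.8 and 89.9 at 24 h and 98.9 and 96.1 at 48 h. BL at 48 h was 0.54 above mock (unadjusted p = 0.0373, adjusted p = 0.560 by limma). Within BL the level at 48 h was 0.54 above that at 12 h (unadjusted p = 0.0366, adjusted p = 0.389 by limma). Neither was called. Averaged over times KRP6 rose by 0.60 against mock (SE 0.14, limma adjusted p = 0.00238, 5 of 6 libraries), by 0.70 against Kyn (SE 0.14, limma adjusted p = 0.00108) and by 0.49 against BL (SE 0.14, limma adjusted p = 0.0132). Without both green-tissue libraries the rises against Kyn and BL were 0.77 (adjusted p = 0.00206) and 0.51 (adjusted p = 0.0248). The changes against mock were -0.22 at 12 h (adjusted p = 0.706 by limma), 0.95 at 24 h (adjusted p = 0.0104) and 1.06 at 48 h (adjusted p = 0.00388). Within BL+Kyn the level at 48 h was 0.86 above that at 12 h (SE 0.24, limma adjusted p = 0.0314). The 24 h call was lost without BL+Kyn 24 h replicate 2 (0.69, adjusted p = 0.165) or without mock 24 h replicate 2 (0.71, adjusted p = 0.138). The averaged call was lost against mock with 12 and 24 h alone (0.37, adjusted p = 0.155), and against BL with 12 and 24 h alone (0.47, adjusted p = 0.0870) or without BL+Kyn 24 h replicate 2 (0.40, adjusted p = 0.0561). The rise over time in BL+Kyn lost its call without BL+Kyn 12 h replicate 2 (0.61, adjusted p = 0.293), without BL+Kyn 48 h replicate 1 (0.82, adjusted p = 0.0951) and without BL+Kyn 48 h replicate 2 (0.91, adjusted p = 0.0510).

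KRP5, known for a role in the endocycle of elongating root cells, was higher with Kyn, whether or not BL was added (chromosome 3, 9060896 to 9061998). In BL+Kyn its normalized counts were 164 and 188 at 12 h, 215 and 177 at 24 h and 226 and 130.4 at 48 h. In Kyn they were 238 and 210.1, 171 and 203, and 209 and 154, and in mock 136 and 159, 115 and 151, and 148 and 121. Kyn 48 h replicate 2 and BL+Kyn 48 h replicate 2 were the lowest of their treatments and lay within the range of mock. KRP5 rose by 0.39 in BL+Kyn (SE 0.14, limma adjusted p = 0.0298, 5 of 6 libraries) and by 0.51 in Kyn (SE 0.14, limma adjusted p = 0.0334, 6 of 6 libraries) against mock. In BL its counts lay between 110.4 and 155, with a change of -0.05 (SE 0.14, adjusted p = 0.935 by limma). BL+Kyn against BL gave 0.44 (SE 0.14, limma adjusted p = 0.0203), and BL+Kyn against Kyn gave -0.11 (95% interval -0.40 to 0.17). These calls stood near the threshold. The call in Kyn was lost in 9 of 34 alternatives, at adjusted p up to 0.121, among them without both green-tissue libraries (0.54, adjusted p = 0.0539). The single libraries that ended it were mock 12 h and 24 h replicate 1, mock 48 h replicate 2, both Kyn 12 h libraries, Kyn 24 h replicate 2 and Kyn 48 h replicate 1, where the change was 0.43 to 0.54. The call in BL+Kyn against mock was lost in 6 of 34 alternatives, at adjusted p up to 0.118, which left out the same 3 mock libraries, or, within BL+Kyn, replicate 2 at 12 h, replicate 1 at 24 h or replicate 1 at 48 h (change 0.26 to 0.36). The call against BL was lost in 6 of 34, at adjusted p up to 0.0783, which left out the same 3 BL+Kyn libraries, BL 12 h replicate 2, BL 24 h replicate 1 or both green-tissue libraries (0.40, adjusted p = 0.0700).

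KRP3 fell in BL+Kyn (chromosome 5, 19792270 to 19794408). This inhibitor of the same family had normalized counts of 39.3 and 29.5 at 12 h, 37.6 and 18.4 at 24 h and 31.3 and 47.2 at 48 h in BL+Kyn. In mock they were 48.8 and 43.2, 59.7 and 55.6, and 49.0 and 65.6. The treatments overlapped through BL+Kyn 48 h replicate 2 alone. In Kyn the counts lay between 28.1 and 60.9, with both 12 h libraries the lowest, and in BL between 37.6 and 78.7. KRP3 fell by 0.69 in BL+Kyn against mock (SE 0.20, limma adjusted p = 0.0122, 6 of 6 libraries), to 0.620 of mock, and by 0.81 against BL (SE 0.20, limma adjusted p = 0.00604). The change against BL was -0.66 without both green-tissue libraries (adjusted p = 0.0328). Against Kyn it was -0.51 (SE 0.20, adjusted p = 0.0627 by limma). The call against mock was lost without BL+Kyn 24 h replicate 2 (-0.52, adjusted p = 0.0538). Leaving out other libraries brought in a call against Kyn, such as without BL+Kyn 24 h replicate 1 (-0.68, adjusted p = 0.0173). At 24 h the change against mock was -1.10 (SE 0.35, limma adjusted p = 0.0363). That call was lost without BL+Kyn 24 h replicate 2 (-0.60, adjusted p = 0.414), without mock 24 h replicate 1 (-1.05, adjusted p = 0.154) and without mock 24 h replicate 2 (-1.15, adjusted p = 0.122), and edgeR and DESeq2 gave adjusted p of 0.0592 and 0.0734. Over the 12 group means of log2 of the normalized count plus 1, KRP3 had a Pearson r of -0.870 with the mean of the endodermis markers. With the mean of the markers of dividing cells it had 0.796, as a description. Its values with the root hair, root meristem and xylem markers were 0.627, 0.530 and -0.094.

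KRP7 was lower in BL+Kyn than in Kyn (chromosome 1, 18365491 to 18366559). Its normalized counts in BL+Kyn were 45.5 and 38.5 at 12 h, 37.6 and 25.5 at 24 h and 36.7 and 36.1 at 48 h. In Kyn they were 49.1 and 57.6, 67.5 and 65.5, and 57.6 and 40.5. The libraries overlapped through Kyn 48 h replicate 2. KRP7 fell by 0.60 in BL+Kyn against Kyn (SE 0.20, limma adjusted p = 0.0293, 6 of 6 libraries). Mock spread widely, between 22.9 and 65.2, and neither BL+Kyn (-0.06, adjusted p = 0.834) nor Kyn (0.54, adjusted p = 0.171) was called against it by limma. The call against Kyn was lost in 9 of 34 alternatives, at adjusted p up to 0.0940. These were no filter on low values, both green-tissue libraries left out (-0.57, adjusted p = 0.0814), or Kyn 12 h replicate 2, either Kyn 24 h library, Kyn 48 h replicate 1, BL+Kyn 12 h or 24 h replicate 2 or BL+Kyn 48 h replicate 1 left out (-0.61 to -0.51). Without mock 48 h replicate 1, KRP7 in Kyn against mock reached 0.75 (adjusted p = 0.0261).

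KRP2, which links auxin to the divisions that start lateral roots, and KRP4, known for a part in cell size control in the shoot meristem, were called in no comparison. KRP2 (chromosome 3, 18800380 to 18801587) averaged 139 ± 20.8 in BL+Kyn, 129 ± 27.6 in Kyn, 131 ± 20.8 in BL and 138 ± 19.1 in mock (SD, n = 6 each). KRP4 (chromosome 2, 13873436 to 13875831) averaged 128 ± 36.1, 128 ± 22.9, 111 ± 21.0 and 129 ± 23.2 in the same order. In BL+Kyn against mock the change was 0.01 for KRP2 (95% interval -0.27 to 0.30) and -0.05 for KRP4 (interval -0.39 to 0.30). Their lowest and highest libraries were 91.7 (Kyn 48 h) and 176 (BL+Kyn 12 h) for KRP2, and 72.3 (BL+Kyn 24 h) and 179 (BL+Kyn 48 h) for KRP4. Both extremes of KRP4 thus lay in BL+Kyn. Across the 12 group means the ratio of the highest to the lowest was 1.42 for KRP2 and 1.66 for KRP4, against 3.66 for KRP1 and 3.00 for LGO.

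For none of the 10 genes did BL+Kyn depart from the sum of both single effects beyond the threshold, in a test that called 3.98% of all genes. KRP6 came nearest, 0.59 above the sum (SE 0.20, unadjusted p = 0.00746, adjusted p = 0.0889 by limma). KRP7 lay 0.71 below it (adjusted p = 0.152), KRP3 0.63 below it (adjusted p = 0.205) and LGO 0.32 below it (95% interval -0.64 to 0.01, adjusted p = 0.251). Of these 10 values, 3 had an unadjusted p under 0.05 in limma, and edgeR and DESeq2 called 0. Without BL+Kyn 48 h replicate 2 the departure of LGO was -0.43 (adjusted p = 0.0318). Without both green-tissue libraries no departure was called, and that of KRP6 was 0.68 (adjusted p = 0.152). KRP1 stood at -0.03 (interval -0.81 to 0.75), so its estimate in BL+Kyn was close to the sum, with a wide interval.

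No gene of the 10 was called in BL or Kyn at a single time, where 0.095%, 0.106% and 0.216% of all genes were called in BL at 12, 24 and 48 h and 1.28%, 0.871% and 1.17% in Kyn, nor between 48 and 12 h within Kyn, BL or mock (0.375%, 0.612% and 0.369% of all genes). Of the 10 genes, limma gave an unadjusted p under 0.05 to 1, 1 and 2 in BL and to 3, 2 and 1 in Kyn at 12, 24 and 48 h, and between 48 and 12 h to 1 in Kyn, 1 in BL and 0 in mock. In these comparisons edgeR and DESeq2 called LGO in Kyn at 12 h alone. Moderated F tests of whether the response to BL+Kyn changed with time called 1.16% of all genes and 0 of the 10. edgeR called 0 as well, and those for BL and for Kyn called 0% of all genes. CCS52A1 had F = 10.6 (unadjusted p = 0.000857, adjusted p = 0.0619) and KRP6 F = 8.68 (unadjusted p = 0.00219, adjusted p = 0.0979). Without BL+Kyn 48 h replicate 2 both passed, at adjusted p of 0.0314 and 0.0457, and DESeq2 called CCS52A1 (adjusted p = 0.00872). LGO in BL+Kyn was 0.60 lower at 48 h than at 12 h (adjusted p = 0.0603 by limma), and without BL+Kyn 48 h replicate 2 it was 0.94 lower (adjusted p = 0.00321).

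**Figure D4:**
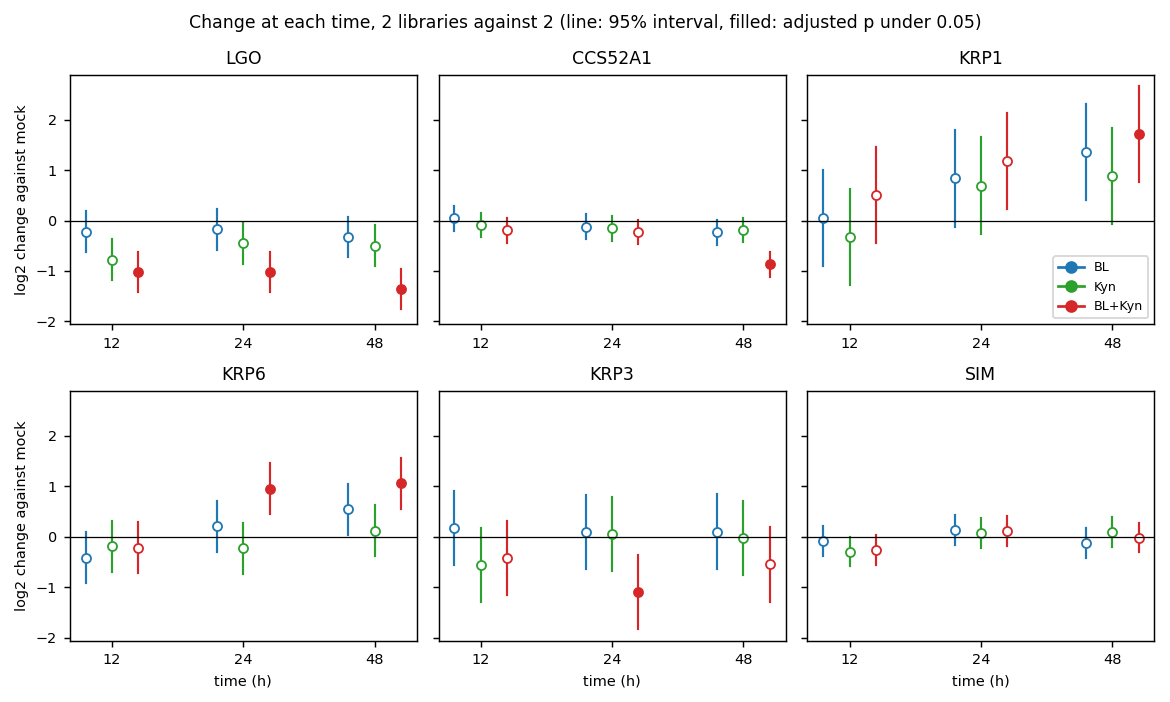
Log2 change against mock at 12, 24 and 48 h for 6 of the genes in BL, Kyn and BL+Kyn, 2 libraries against 2, with 95% intervals as lines and filled points for an adjusted p under 0.05. LGO in BL+Kyn is filled at each time (-1.02, -1.03 and -1.36), CCS52A1 and KRP1 at 48 h only, KRP6 at 24 and 48 h, and SIM at none.

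For the same genes, the authors' deposited table holds adjusted p-values of their own, per treatment and time. For LGO the authors' deposited table listed adjusted p of 1.10e-05, 4.56e-06 and 8.99e-10 in BL+Kyn at 12, 24 and 48 h, and 0.00410, 0.408 and 0.2505 in Kyn at these times. For CCS52A1 in BL+Kyn the authors' deposited table listed 1.71e-10 at 48 h, against 0.477 at 12 h and 0.196 at 24 h. For KRP6 it was 0.0121 at 24 h and 0.00304 at 48 h in the authors' deposited table, and for KRP1 0.0117 at 48 h. For KRP3 at 24 h the authors' deposited table listed 0.0909, where limma gave the call that edgeR and DESeq2 did not.

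Of 12 other listed inhibitors of the SIAMESE family, 11 were tested in BL+Kyn against mock, of which 2 rose and 2 fell. Over all genes 18.7% rose and 17.6% fell, so the share is near the background. The median of the 11 was 0.15, against -0.00 over all genes. Those without a symbol in the annotation are given by locus. AT5G40460, annotated as an SMR3-like protein, rose by 0.61 (limma adjusted p = 0.0114) and AT1G10690, annotated as a CDK inhibitor, by 0.42 (limma adjusted p = 0.0110). AT2G28870, annotated as SMR1-like, fell by 0.52 (limma adjusted p = 0.0402) and AT5G59360, annotated as an uncharacterized protein, fell by 2.71 (limma adjusted p = 0.000152). AT5G59360 had normalized counts of 12.4 and 3.85, 12.4 and 1.42, and 2.16 and 1.39 at 12, 24 and 48 h in BL+Kyn, against 21.9 and 16.5, 32.5 and 54.4, and 38.4 and 41.9 in mock. Its libraries did not overlap, and 4 of the 6 in BL+Kyn held 3 reads or fewer, so the size of its fall is uncertain. SMR4 (0.18), SMR5 (0.10) and SMR7 (-0.03) were not called. AT2G37610 lay under the minimum level and was not tested.

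Of 10 genes for activators, inhibitors and subunits of the APC/C, 0 rose and 2 fell in BL+Kyn against mock, where 17.6% of all genes fell, with a median of -0.14. The genes that fell were CCS52B, a relative of CCS52A1 that acts in dividing cells (-0.59, limma adjusted p = 0.0107), and SAMBA, a regulator of the complex (-0.40, limma adjusted p = 0.0270). CCS52A2, the close relative of CCS52A1 that acts near the stem cells of the root, was at 0.12 (SE 0.35, adjusted p = 0.818 by limma) with means of 16.2 in BL+Kyn and 15.8 in mock. Among 10 tested genes for CDKs, cyclins and other partners that hold back the endocycle, 0 rose and 2 fell, again near the 17.6% of all genes. CDKB1;2 fell by 0.76 (limma adjusted p = 0.00285) and CDKB1;1 by 0.35 (limma adjusted p = 0.0365); both encode CDKs of the B class, which drive mitosis. CDKA;1, the CDK that KRP proteins bind, was at 0.01 (adjusted p = 0.953 by limma).

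In the same comparison, in which 18.7% of all genes rose and 17.6% fell, 0 of 8 tested genes for E2F and DP factors and their partner RBR1, which set the S-phase programme, rose and 3 fell, DPA by 0.41, E2FA by 0.53 and DEL3 by 0.30 (limma adjusted p = 0.0140, 0.0355 and 0.0486). Of 7 genes for topoisomerase VI, which plants need to complete the endocycle, and for other endocycle factors, 0 rose and 4 fell, against the same 17.6% of all genes. RHL2 fell by 0.36 (limma adjusted p = 0.00987) and TOP6B by 0.54 (limma adjusted p = 0.0197), both subunits of the enzyme. BIN4, an associated protein, fell by 0.38 (limma adjusted p = 0.0444), and CDT1A, a replication licensing factor, by 0.32 (limma adjusted p = 0.0453). The medians of these groups were -0.28 for the E2F group, -0.32 for the topoisomerase group and -0.23 for the CDK partners. Of 4 genes for ubiquitin ligases linked to KRP turnover (FBL17, SKP2A, SKP2B and RKP), none was called, with estimates between -0.15 and 0.77. No member of these further lists was called in BL alone or in Kyn alone, averaged over times, where 1.88% and 4.9% of all genes were called. CYCA2;1 and DEL2 lay under the minimum level and were not tested.

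**Figure D5:**
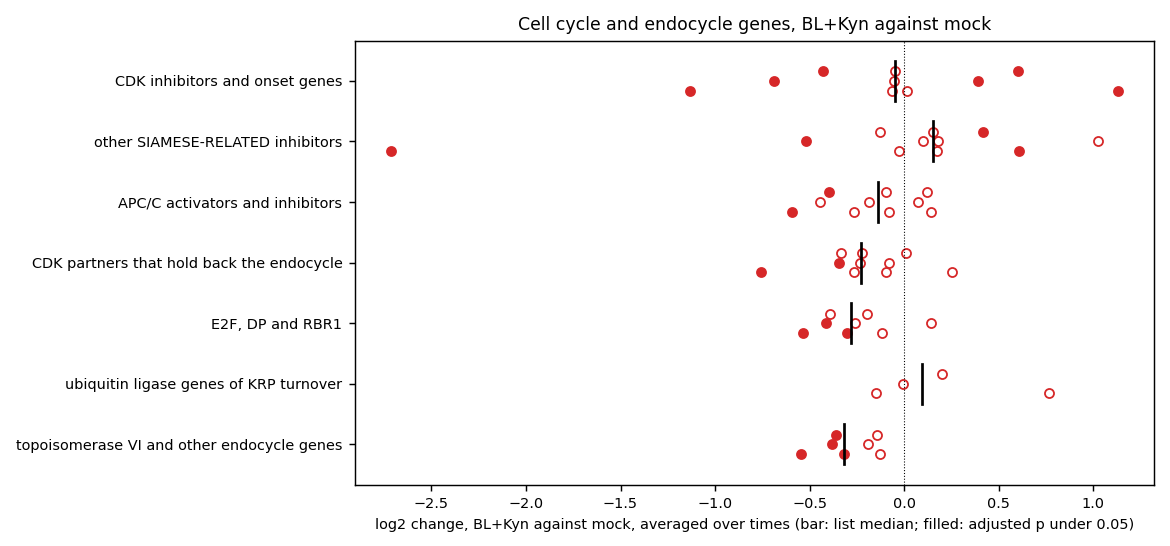
Log2 change in BL+Kyn against mock, averaged over times, of the 10 genes and of 6 further lists of cell cycle and endocycle genes (rows), 1 point a gene, filled for an adjusted p under 0.05, with the list median as a bar. The medians run between -0.32 for the topoisomerase VI list and 0.15 for the SIAMESE family, and AT5G59360 stands at -2.71.

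Set against Kyn, BL+Kyn lowered CYCA2;3 (-0.52), CYCD3;3 (-0.31), CDKB1;1 (-0.35), CDKB1;2 (-0.56), E2FA (-0.65), RHL2 (-0.42), BIN4 (-0.46), AT5G59360 (-1.43) and OSD1 (-0.44), an inhibitor of the APC/C, and raised AT5G02420 (0.30). Set against BL, it lowered E2FA (-0.52), DPA (-0.53), DEL3 (-0.33) and TOP6B (-0.52) and raised AT5G40460 (0.75) and AT1G51355 (1.61). These are all the calls in the further lists for these comparisons, averaged over times. Against Kyn, 1 of 11 SIAMESE-family genes rose and 1 fell. The falls in the other lists were 1 of 10 APC/C genes, 4 of 10 CDK partners, 1 of 8 E2F group genes and 2 of 7 topoisomerase list genes. Against BL, 2 of 11 SIAMESE-family genes rose, and 3 of 8 E2F group genes and 1 of 7 topoisomerase list genes fell. The lists not named for a comparison had 0 calls. Of all genes, 30.3% were called against Kyn and 27.7% against BL. Each comparison uses a green-tissue library, and these calls are not given without it.

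Across the 12 group means, as a description over groups that share normalization, LGO and CCS52A1 moved most alike among the 10 genes (Pearson r 0.816), followed by KRP1 and KRP6 (0.711) and by KRP3 and LGO (0.622). KRP1 and LGO ran most opposite (-0.704). Among 16095 genes with a mean of at least 20, the patterns nearest to LGO were those of AT5G62280 (0.970), RSH3 (AT1G16440, annotated as root hair specific, 0.968) and CYP707A1 (0.967), which encodes an enzyme of abscisic acid breakdown. Those nearest to KRP1 were AT5G10695 (0.928), AT3G17920 (0.923) and AT1G16850 (0.921).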

How the data were processed

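The authors named TAIR10 as the build and, as tools, DESeq2 1.18.1, HTSeq 0.6.1 and TopHat2 2.1.0, besides FastQC 0.11.5, cutadapt 1.10 and Trim Galore, per the submitters' processing notes. Strand and the handling of molecular barcodes are not given in the sources used here, and no other deposited feature overlaps any of the 10 genes (0 overlaps). The authors deposited normalized counts per library, a linear signal scaled to totals of 11.68 M to 12.34 M, and a table of log2 fold changes, p-values and adjusted p-values per treatment and time, relative to mock. Dividing each library's deposited normalized counts by its unit gave whole reads for 100% of values within 0.1. All 24 columns were mapped to samples.

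In this re-analysis log2 of the normalized count plus 1 was fitted with limma 3.58.1 (trend) in R 4.3.3 on 12 group means (12 residual degrees of freedom), for 18948 genes with a mean of at least 5. p-values were adjusted by the Benjamini-Hochberg method per contrast, with 0.05 as the threshold, and intervals are 95%. The fit was tested on simulated data with 200 changed genes. "In 6 of 6 libraries" counts libraries of the first-named treatment on the stated side of the other's mean at the same time. edgeR 4.0.16 and DESeq2 1.42.0 were run on recovered reads as alternatives. Figures and summaries used Python 3.11.15, NumPy 2.4.6, pandas 2.3.3 and matplotlib 3.10.9.

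The 10 genes, the further lists and the tests were chosen with earlier results of these data known. All 10 genes are described; of the further lists, every member is counted and up to 3 called members a direction are named by smallest p in BL+Kyn against mock, with CCS52A2 and relatives of called genes, while genes outside this rule (CDT1A, CDKA;1, SMR4, SMR5, SMR7, the ubiquitin ligase genes, and the calls against Kyn and BL) were named after their values were seen. The printed correlations with cell type markers were not fixed by this rule. They include the highest and the lowest of those computed. Deposited coordinates are TAIR10. Promoter sequence came from the RefSeq genome TAIR10.1, where all 22880 genes compared lay on the same chromosome and overlapped. The limma p-values rest on the spread between the 2 libraries of a group, pooled over all 12 groups and moderated across genes. Precision at low counts is limited by counting.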

Additional observations from a re-analysis of the deposited data

How the results depend on the processing

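Among 34 alternatives, 28 called values of the 10 genes kept their direction in all, and 17 lost the call in at least 1; of 192 uncalled values, 9 gained one. The averaged calls of LGO held in every alternative run. KRP1, with a mean under 20, could not be fitted at that filter. Leaving out 1 library at a time gave between 1 and 3 called genes in Kyn against mock, 5 and 6 in BL+Kyn against mock, 3 and 6 against Kyn, and 4 and 5 against BL, averaged over times. It gave 0 and 1 for the departure from the sum, 0 and 1 for Kyn at 12 h, 0 and 1, 1 and 4, and 3 and 5 for BL+Kyn at 12, 24 and 48 h, 1 and 3 for 48 h against 12 h in BL+Kyn, and 0 and 2 for the response to BL+Kyn over time. With no filter on low values, and likewise without both green-tissue libraries, 1 gene was called in Kyn against mock and 3 in BL+Kyn against Kyn. With 12 and 24 h alone 3 were called in BL+Kyn against mock, 3 against Kyn and 3 against BL. In Kyn at 12 h 1 gene (LGO) was called with a pseudocount of 5, with edgeR and with DESeq2, and DESeq2 called 1 gene (CCS52A1) for the response to BL+Kyn over time. The causes of these changes were not tested, beyond fewer samples or more genes in the fit. KRP1, at 7 to 42 reads a library, is limited by depth.

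Replicate numbers were not used as pairs in the main results, since the labels give them no shared origin and not every pair of groups passed the check: deviations of same-numbered libraries correlated between -0.188 and 0.592 over 66 pairs of groups, 20 of them above 0.1, and 18 of 24 libraries correlated best with one of their own number, a hint from the data and not the design. The 2 libraries of a group deviate from its mean equally and oppositely, so the 24 outcomes are not separate observations. With the replicate block 1 gene (LGO) was called in Kyn at 12 h, and KRP1 was no longer called in BL+Kyn against Kyn.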
